A study of Mus musculus with 6 samples.

Results

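The Class I olfactory receptors (ORs) of the mouse were taken as the genes with a plain name from Olfr543 to Olfr692, with no pseudogene suffix. By this rule 117 of the 1097 ORs named without a pseudogene suffix (called intact ORs here by name alone), and of the 24661 genes in the deposited files, were Class I members, and their counts were summed over 294 annotated transcripts. RNA was sequenced from the olfactory mucosa of 3 wild-type mice and 3 RTP1,2DKO mice at postnatal day 21, all labelled C57BL/6. In RTP1,2DKO the coding regions of Rtp1 and of Rtp2 are missing from every cell of the body: they were exchanged for a loxP site and a puromycin cassette, respectively, in embryonic stem cells of a 129/B6 hybrid. According to the methods the mice were littermates matched for sex, and the whole mucosa was taken, so that glands, supporting cells and blood were sequenced together with the neurons.

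Each olfactory sensory neuron (OSN) expresses 1 OR, a receptor with a membrane-spanning core that sits on the cilia and binds odorants. Class I ORs resemble the ORs of fish, lie in a single cluster of genes and are mostly expressed in the dorsal zone of the epithelium. Many of them respond to acids and other water-soluble odorants. RTP1 and RTP2 are accessory proteins that help ORs leave the endoplasmic reticulum and reach the cell surface, and the comparison of RTP1,2DKO with the wild-type asks which ORs are transcribed more or less in their absence.

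The members lay side by side on chromosome 7 between 102476579 and 105369355 (GRCm38, GENCODE M21), a span of 2893 kb with 62 genes on the plus strand and 55 on the minus strand. The annotation lists 114 of them as protein coding, 2 (Olfr663 and Olfr664) as polymorphic pseudogenes and 1 (Olfr687) as a transcribed pseudogene. Their reference proteins went with the label of a single receptor class. Of the 114 members with an annotated protein of at least 250 residues, 112 had their closest relative inside the span, at a median identity of 77.9%, whereas the median identity of the closest OR outside it was 46.1%. The 2 exceptions were Olfr657 and Olfr658, which were closest to Olfr504 (92.2% identity) and Olfr503 (93.5% identity), ORs numbered outside the range. For most other members, too, the closest OR outside the span was Olfr503 or Olfr504. Both are counted below among the other intact ORs, as are 9 intact ORs that lie inside the span with numbers outside the range. To the typical OR outside the span the members had a median identity of 29.5%, against 44.2% between pairs of members.

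The targeted genes went with the labels. Rtp1 had 20522, 25301 and 13543 normalized counts across wild-type mice 1 to 3, but 90.6, 85.5 and 108.8 in the RTP1,2DKO mice, and Rtp2 fell from 8388 ± 1181 to 45.0 ± 16.7 (SD, n = 3). Total counts ranged from 31125410 to 41636996 per mouse, and the members held 15230 to 23722 of them. Of the 117 members, 97 to 100 had at least 10 counts in a wild-type mouse and 91 to 95 in an RTP1,2DKO mouse, and Olfr688 had no count after rounding in any mouse and was not tested. The labels name no batches.

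In RTP1,2DKO some Class I members fell several-fold, while others had small or positive changes. With size factors over all genes, 40 of the 116 tested members were lower and 6 were higher at an adjusted p under 0.05 (edgeR's quasi-likelihood test, Benjamini-Hochberg adjustment over 22152 genes), while 3.61% of all genes tested were called (3.15% lower and 0.46% higher). The 40 falls ran from 2.09-fold to 10.9-fold with a median of 4.66-fold, and in each of them every RTP1,2DKO mouse lay below every wild-type mouse. The 6 members that rose did so by 0.75 to 1.11 on the log2 scale, also with no overlap between the groups. In bulk tissue, fewer neurons that express an OR cannot be told apart from less of its RNA in each neuron.

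Among the other 973 intact ORs tested, 42.5% were called, 38.3% lower and 4.21% higher, against 34.5% and 5.17% of the members. The median log2 fold change was -0.59 over the members, -1.08 over the other intact ORs and 0.02 over all genes tested. Without RTP1,2DKO mouse 2 the members' median was -0.82. Of the 97 members with a mean of at least 10 normalized counts, 38 (39.2%) had a positive log2 fold change and 23 (23.7%) lay below -2, while the shares for 867 other intact ORs were 26.5% and 18.6%. Only 4 of the 97 members lay between -1 and -0.5, 21 lay between 0.5 and 1, and 14 lay between -2 and -1.5. No test was made of these differences between members and other ORs.

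**Figure D1:**
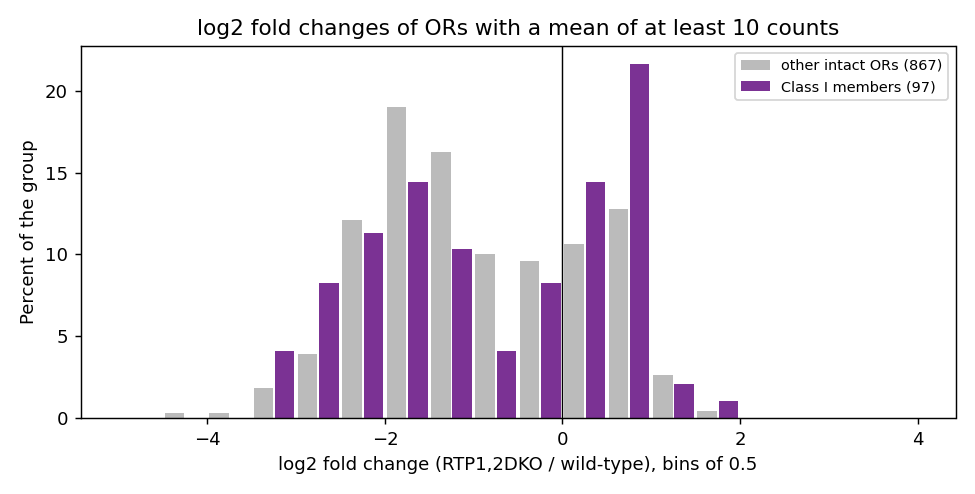
Share of ORs (vertical axis, percent of each group) by log2 fold change of RTP1,2DKO over wild-type in bins of 0.5 (horizontal axis), for 97 Class I members and 867 other intact ORs, all averaging 10 normalized counts or more. The members have a broad peak around -2 and a narrow peak between 0 and 1, with few (4 of 97) between -1 and -0.5. The other intact ORs are most frequent between -2 and -1.5 (19.0%), and each bin from -1 to 1 holds 9.57% to 12.8% of them.

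Groups that did not overlap were more frequent than calls. All RTP1,2DKO mice lay below all wild-type mice for 49 members and above them for 18, whereas this held for 9.25% and 7.2% of all genes tested, and for 52.6% and 11.4% of the other intact ORs. None of the 20 members with a mean under 10 normalized counts passed the threshold, so that the depth limits what can be said of them.

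**Figure D2:**
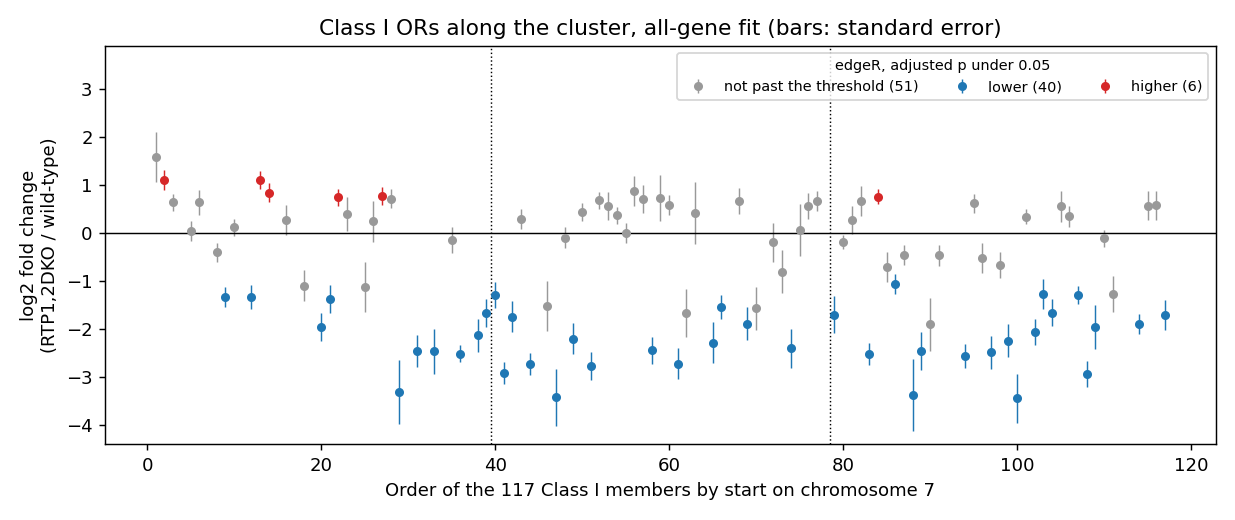
log2 fold change of RTP1,2DKO over wild-type (vertical axis) for the 97 members with a mean of at least 10 normalized counts, in their order along chromosome 7 (horizontal axis). Points are estimates from the all-gene fit, bars are standard errors (SE), colours mark the call, and dotted lines part the cluster into 3 runs of about equal size. The 40 lower members are spread over all runs, 5 of the 6 higher members lie in the first, and points above 0 occur in every run.

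Among the members that rose was Olfr544, a receptor for azelaic acid (chromosome 7, 102482031 to 102488313). It had 125, 180.5 and 123 normalized counts across wild-type mice 1 to 3, against 263, 331 and 333 in the RTP1,2DKO mice. The lowest RTP1,2DKO value was thus above the highest wild-type value, and its log2 fold change reached 1.11 with a standard error (SE) of 0.21 (adjusted p = 0.00735, edgeR). Olfr557 had 147, 147 and 122 normalized counts in the wild-type and 345, 266 and 287 in RTP1,2DKO. The log2 fold change was 1.11 with an SE of 0.19 (adjusted p = 0.00405, edgeR). Leaving out any 1 of the 6 mice kept both calls.

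Olfr558, whose human orthologue OR51E1 is a receptor for short-chain fatty acids and is also expressed outside the nose, had 205, 344 and 287 normalized counts in the wild-type against 484, 577 and 439 in RTP1,2DKO. Its groups did not overlap either, and it rose by 0.84 on the log2 scale with an SE of 0.20 (adjusted p = 0.0318, edgeR). It lies next to Olfr557 on the plus strand, from 102702215 to 102712064. Olfr653, the most abundant of the 6 by counts, had 594, 908 and 687 normalized counts in the wild-type and 1194, 1237 and 1283 in RTP1,2DKO. The RTP1,2DKO mice differed little among themselves, with a mean of 1238 ± 44.8 against 729.8 ± 160.9 in the wild-type (SD, n = 3).

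Olfr571 rose from 531 ± 102 to 894 ± 178 normalized counts and Olfr577 from 149.9 ± 22.2 to 256 ± 9.5 (SD, n = 3). Their log2 fold changes of 0.75 and 0.77 had adjusted p-values of 0.0351 and 0.041 (edgeR). These smaller increases depended on the mice in the fit. With 1 mouse left out, Olfr577 passed the threshold in 1 of 6 fits, Olfr558 and Olfr571 in 2, and Olfr653 in 5. The lost calls had adjusted p-values up to 0.132 for Olfr558, 0.163 for Olfr571 and 0.152 for Olfr577 (edgeR), and the number of higher members was 3 without RTP1,2DKO mouse 1, without RTP1,2DKO mouse 2 and without wild-type mouse 1. Olfr571 also missed the threshold with a filter on low counts (adjusted p = 0.0509, edgeR).

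**Figure D3:**
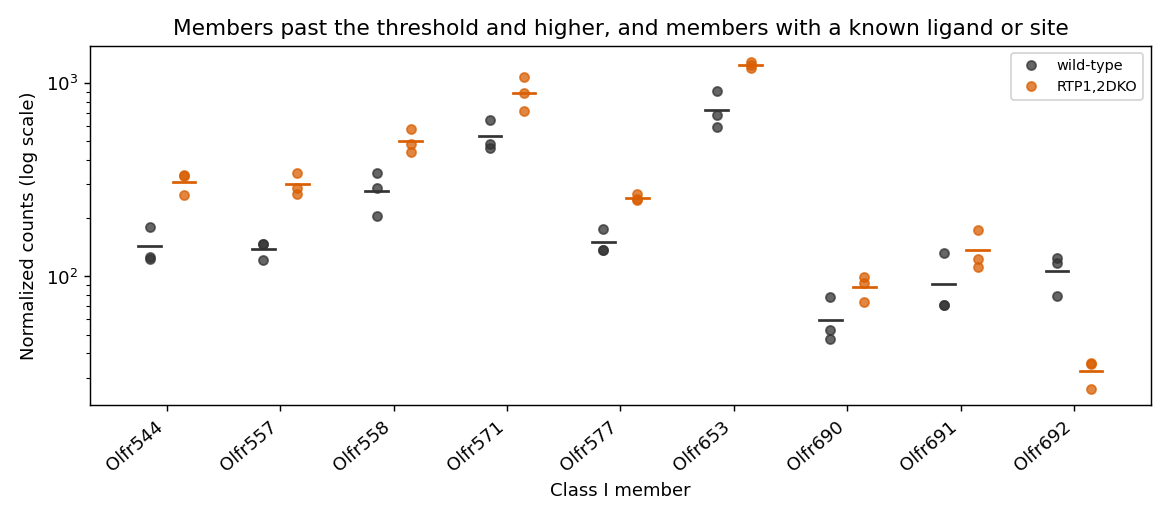
Normalized counts on a log axis (vertical) for the 6 members that rose and for Olfr690, Olfr691 and Olfr692 (horizontal). Points are mice, 3 per group, and lines are group means. In the first 6 genes all RTP1,2DKO points lie above all wild-type points, and in Olfr692 all lie below.

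The largest fall by log2 fold change among members past the threshold was that of Olfr671. It had 63.2, 49.4 and 37.8 normalized counts in the wild-type and 3.2, 4.4 and 6.1 in RTP1,2DKO, for a log2 fold change of -3.45 with an SE of 0.52 (adjusted p = 0.00174, edgeR). Olfr606 fell from 52.0 ± 24.2 to 4.66 ± 2.44 normalized counts (SD, n = 3), and Olfr582 had 61.4, 51.5 and 63.3 in the wild-type and 8.7, 8.4 and 0.0 in RTP1,2DKO. These members were thus nearly lost from the RNA, at under 10 counts in every RTP1,2DKO mouse. Olfr657 had 44.5, 55.3 and 106.9 normalized counts in the wild-type and 4.2, 14.8 and 0.0 in RTP1,2DKO. Its fall of -3.37 on the log2 scale had an SE of 0.75, and the call was lost without RTP1,2DKO mouse 1 (adjusted p = 0.0855, edgeR) and without wild-type mouse 3 (adjusted p = 0.0843, edgeR).

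More abundant members fell by almost as much, and with smaller errors. Olfr598 had 427, 751 and 535 normalized counts across wild-type mice 1 to 3, against 87.9, 63.0 and 76.9 in RTP1,2DKO, for a log2 fold change of -2.92 with an SE of 0.23 (adjusted p = 2.84e-05, edgeR). Olfr601 fell from 316 ± 47.1 to 47.8 ± 9.15 normalized counts, Olfr610 from 289.7 ± 84.6 to 42.4 ± 15.2, and Olfr665 from 347 ± 51.1 to 58.7 ± 17.3 (SD, n = 3). The remaining genes of the 10 largest falls were Olfr683, with a log2 fold change of -2.93 with an SE of 0.27 (adjusted p = 6.03e-05, edgeR), and Olfr622, with one of -2.72 with an SE of 0.32 (adjusted p = 0.000363, edgeR). Of the 40 lower members, 23 had a log2 fold change under -2, and 35 of the calls held whichever of the 6 mice was left out. The 5 that did not were Olfr570, Olfr646, Olfr657, Olfr676 and Olfr684. Olfr676 and Olfr684 passed in 1 of 6 fits, with adjusted p-values up to 0.175 and 0.132 (edgeR).

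**Figure D4:**
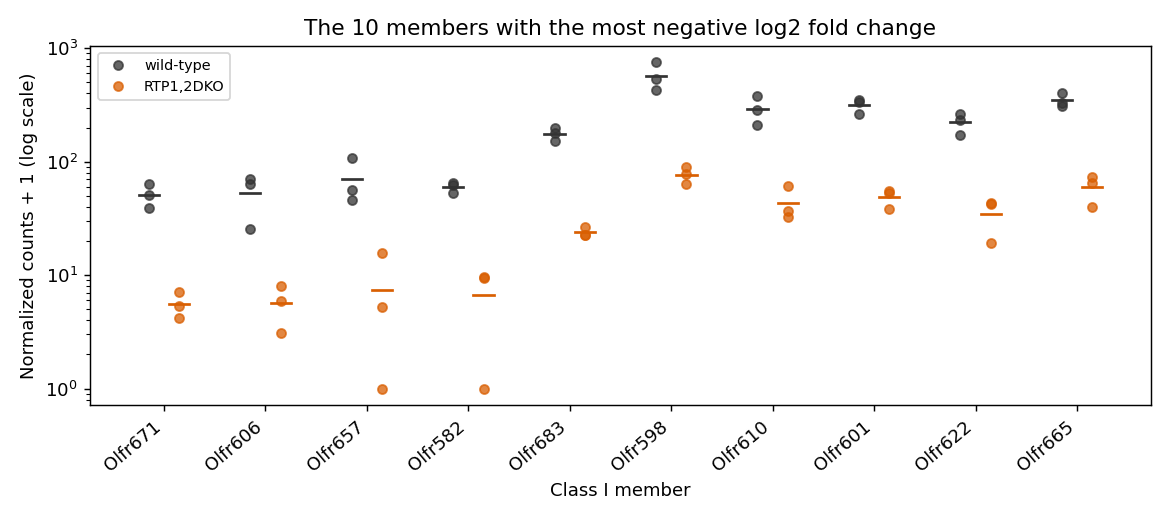
Normalized counts plus 1 on a log axis (vertical) for the 10 members with the most negative log2 fold change among those past the threshold (horizontal). Points are mice, 3 per group, and lines are group means. The groups are apart in every gene, and Olfr582 and Olfr657 have an RTP1,2DKO mouse with no count.

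By level per transcript length (the deposited TPM, a length-corrected share of each library, summed over transcripts), the members were expressed at a median of 2.77 TPM in the wild-type, and 95 of 117 exceeded 1 TPM. The highest means belonged to Olfr672 with 19.0 ± 5.69 TPM, Olfr598 with 18.7 ± 7.98, Olfr566 with 16.6 ± 7.47, Olfr615 with 14.5 ± 4.92, Olfr648 with 13.7 ± 4.20 and Olfr661 with 12.6 ± 0.546 (SD, n = 3 wild-type mice). In this order no member was apart from the next, since the ranges over the wild-type mice overlapped for all 116 neighbouring places. Olfr688 was listed at 0 in 5 mice.

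These 6 genes, abundant in the wild-type, had unlike fates in RTP1,2DKO. Olfr598 was among the largest falls (above). Olfr672 had 286.5, 393 and 333 normalized counts in the wild-type and 388, 451 and 447 in RTP1,2DKO, but the log2 fold change of 0.34 did not pass the threshold (adjusted p = 0.453, edgeR). Olfr648 and Olfr661 had log2 fold changes of -0.18 and -0.46 that did not pass (adjusted p = 0.727 and 0.454, edgeR). Olfr615 had 467.6, 682 and 431 normalized counts in the wild-type and 504, 669 and 415 in RTP1,2DKO, for a log2 fold change of 0.01 (adjusted p = 0.997, edgeR). For Olfr566 the log2 fold change was -1.10 (adjusted p = 0.102, edgeR), with 159, 317 and 242 normalized counts in the wild-type and 110, 65.2 and 161 in RTP1,2DKO. The wild-type level said little about the change: over the 97 members averaging 10 or more counts, Spearman's rho between wild-type TPM and log2 fold change was 0.02, across genes of the same 6 libraries.

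The sum of the members changed less than the typical member. Their summed normalized counts were 18446, 22633 and 19705 across wild-type mice 1 to 3, against 16049, 15990 and 16096 in the RTP1,2DKO mice. The median member went from 98.3, 131 and 114 normalized counts to 50.6, 46.2 and 52.0, and the median of the other intact ORs from 118 ± 17.0 to 52.6 ± 4.88 (SD, n = 3). In all these measures the RTP1,2DKO mice lay below the wild-type mice. The counts were also spread over fewer genes, with 18 members holding 50% of the members' counts in every wild-type mouse and 12, 12 and 14 in RTP1,2DKO mice 1 to 3. Olfr552 or Olfr648 led in the wild-type, and Olfr552 or Olfr653 in RTP1,2DKO, and 6 of the 10 highest members by mean counts were shared.

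As a share of the counts on intact ORs the members took 5.73%, 6.33% and 6.35% in the wild-type and 5.30%, 6.10% and 5.27% in RTP1,2DKO. The groups overlapped, with means of 6.14% ± 0.353 and 5.56% ± 0.474 (SD, n = 3). The total includes a single Class II receptor, Olfr907, that held 19.3% to 23.2% of OR counts in the wild-type and 23.4% to 33.4% in RTP1,2DKO. Without it, the members took 7.84% ± 0.640 and 7.75% ± 0.766, and the groups overlapped as well.

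Some members are known from other work. Olfr690 and Olfr691, neighbours at the far end of the cluster that respond to carboxylic acids, had 47.6, 78.2 and 53.0 and 71.6, 133 and 70.8 normalized counts in the wild-type, respectively. In RTP1,2DKO the values were 92.8, 99.4 and 73.5 for Olfr690 and 112, 175.0 and 123 for Olfr691. Both pairs of groups overlapped, and the log2 fold changes of 0.57 and 0.58 did not pass the threshold (adjusted p = 0.528 and 0.521, edgeR). Olfr692, which is also expressed in the vomeronasal organ, had 79.7, 117 and 125 normalized counts in the wild-type and 26.3, 35.8 and 35.3 in RTP1,2DKO. It fell by 1.72 on the log2 scale with an SE of 0.31 (adjusted p = 0.00633, edgeR).

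Of the members that the study expressed in cells for their surface expression, Olfr558 is given above. Olfr620 had 149 ± 25.1 normalized counts in the wild-type and 224 ± 31.4 in RTP1,2DKO with groups that did not overlap, and Olfr632 had 163 ± 63.6 and 259 ± 57.6 (SD, n = 3). Neither passed the threshold (adjusted p = 0.218 and 0.326, edgeR). Olfr656, at 619 ± 33.8 and 449.7 ± 151 normalized counts (SD, n = 3), had a log2 fold change of -0.46 (adjusted p = 0.417, edgeR). Olfr631 and Olfr638 were too rare to compare, with at most 20.2 normalized counts in any mouse. Olfr543, the first gene of the cluster, was rare as well but had 9.3, 14.3 and 12.1 normalized counts in the wild-type and 19.0, 48.0 and 41.2 in RTP1,2DKO (log2 fold change 1.59 with an SE of 0.52, adjusted p = 0.16, edgeR).

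The spread between mice of a group differed between members. Among the 78 members with a mean of at least 50 normalized counts, the larger of the 2 within-group SDs of log2(normalized count + 1) had a median of 0.37. It was highest for Olfr586, with 1.17 in RTP1,2DKO, where its counts were 6.3, 19.2 and 35.3 against 125, 131 and 81.6 in the wild-type. Its fall still passed the threshold (log2 fold change -2.46, adjusted p = 0.00858, edgeR). Olfr643 followed with 0.81, from 38.4, 113 and 48.5 counts in RTP1,2DKO. Its annotated gene body, from 103998800 to 104137405, runs across several other members on both strands, among them Olfr638. The protein annotated for Olfr643 has only 46 residues.

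Relative to the typical OR the picture turned toward gains. With size factors and adjustment over the 1089 intact ORs tested, 42 members were higher and 29 lower (edgeR's quasi-likelihood test), where 54.6% of all intact ORs were called (25.7% lower and 28.9% higher) and 53.9% of the other intact ORs (25.8% lower and 28.1% higher), and the median log2 fold change of the members was 0.36. This balance depended on the scaling: when libraries were brought to the same sum of OR counts, 25 members were higher and 46 lower, and the median turned to -0.41. Between the fits the members' log2 fold changes shifted by a median of 0.96. All 6 members that rose in the all-gene fit were also higher here, as were 36 members that were not called there. Of the 40 that fell in the all-gene fit, 29 were lower here, 11 were not called and 0 were higher.

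Olfr543 had the largest relative gain among the genes named above, at a log2 fold change of 2.59 with an SE of 0.52 (adjusted p = 4.02e-05, edgeR). Olfr544 and Olfr557 followed with 2.10 and 2.06 (adjusted p = 1.61e-09 for each, edgeR). Olfr558, Olfr571, Olfr577 and Olfr653 lay between 1.73 and 1.82. Of the members tested in cells, Olfr620 and Olfr632 were relatively higher by 1.54 and 1.67 (adjusted p = 6.73e-07 and 3.65e-07, edgeR), and so were Olfr690 and Olfr691 by 1.54 and 1.58 (adjusted p = 1.6e-05 and 4.34e-06, edgeR). Olfr598 was relatively lower by -1.95 and Olfr671 by -2.48 (adjusted p = 9.12e-09 and 0.000444, edgeR), whereas Olfr692, at -0.75, missed the threshold (adjusted p = 0.0513, edgeR) and passed it with the replicate number as a block (adjusted p = 0.0382, edgeR). Olfr656 and Olfr661, at 0.47 and 0.48, likewise passed with the block (adjusted p = 0.0175 and 0.0193, edgeR, against 0.0664 and 0.0823 without it), and the sign of both turned when libraries were brought to the same sum of OR counts (-0.30 and -0.31).

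Along the chromosome, lower members were found in all 3 runs of the cluster. In the first run of 39 tested genes, from Olfr543 to Olfr596, 10 members were lower and 5 higher in the all-gene fit, with a median log2 fold change of -0.01. In the second run, from Olfr597 to Olfr645, 13 were lower and 0 higher with a median of -0.80. The third, from Olfr646 to Olfr692, held 17 lower members and 1 higher, Olfr653, with a median of -1.16. Positive log2 fold changes numbered 19, 16 and 11 in these runs. In the fit over intact ORs the runs held 16, 15 and 11 higher and 7, 11 and 11 lower members. No test of position was made, and 3 of the 5 higher members of the first run (Olfr558, Olfr571 and Olfr577) are among the calls that depended on single mice. Direct neighbours could differ as much as distant genes. The median difference in log2 fold change was 1.37 between adjacent members and 1.38 between all pairs of the 97 members averaging 10 or more counts, and 31 of 96 adjacent pairs differed by more than 2. The widest gap parted Olfr578 (log2 fold change 0.72) from Olfr582 (-3.32), 2 genes given because they mark this gap.

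The span also holds 9 intact ORs with other numbers, with log2 fold changes from -3.34 (Olfr68) to 0.74 (Olfr33). Olfr78, whose human orthologue OR51E2 binds short-chain fatty acids, had 234, 238.5 and 233 normalized counts in the wild-type and 378, 350.4 and 397 in RTP1,2DKO (log2 fold change 0.67 with an SE of 0.15, adjusted p = 0.0279, edgeR). It lies beyond Olfr33, the neighbour of Olfr558, which had a log2 fold change of 0.74 with overlapping groups (adjusted p = 0.293, edgeR). Beside the β-globin genes, Olfr69, Olfr68 and Olfr67 fell by 2.46, 3.34 and 1.49 on the log2 scale (adjusted p = 0.000142, 3.01e-05 and 0.00826, edgeR). Olfr65 rose by 0.70 (adjusted p = 0.0364, edgeR), Olfr64 had a log2 fold change of 0.62 and Olfr66 one of -0.65 (adjusted p = 0.131 and 0.118, edgeR). The rare Olfr243 had at most 12.4 normalized counts in any mouse. The call on Olfr78 was lost in all 6 fits that left out 1 mouse (adjusted p from 0.0597 to 0.128, edgeR), and that on Olfr65 in 4 of 6.

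Close relatives within the cluster mostly had log2 fold changes of the same sign, with exceptions. At 80% protein identity, 51 members fell into 24 groups of 2 or 3 genes. Of the 21 pairs over this identity in which both genes had a mean of at least 10 counts, 16 had log2 fold changes of the same sign and 5 of opposite sign. The median difference within these pairs was 0.97, against 1.37 for 88 pairs of members at 60% to 80% identity, 1.34 for 3212 pairs at 40% to 60% and 1.57 for 1239 pairs below that. Opposite signs made up 23.8% of the pairs over 80% identity and 38.6%, 47.2% and 52.5% of the pairs in the lower ranges. Signs were counted whether or not a change passed the threshold. No pair of opposite sign over 80% identity had both genes past it in the all-gene fit. Some had a single gene past it, and others, such as Olfr666 and Olfr667, had neither. Pairs share genes, a locus and reads with each other, so these values are a description with no test. Reads of close relatives can be split wrongly. In the GENCODE M21 transcripts, the median member had 95% of its words of 31 bases in no other gene. Under 50% was found for 6 members, of which Olfr611 and Olfr612 were abundant and Olfr564, Olfr603, Olfr687 and Olfr688 were rare. The reads were assigned to other transcript models, with extended ORs, so these shares only approximate those in the counting. Of the 58 members tested with at least 95%, 20 were lower and 4 higher.

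**Figure D5:**
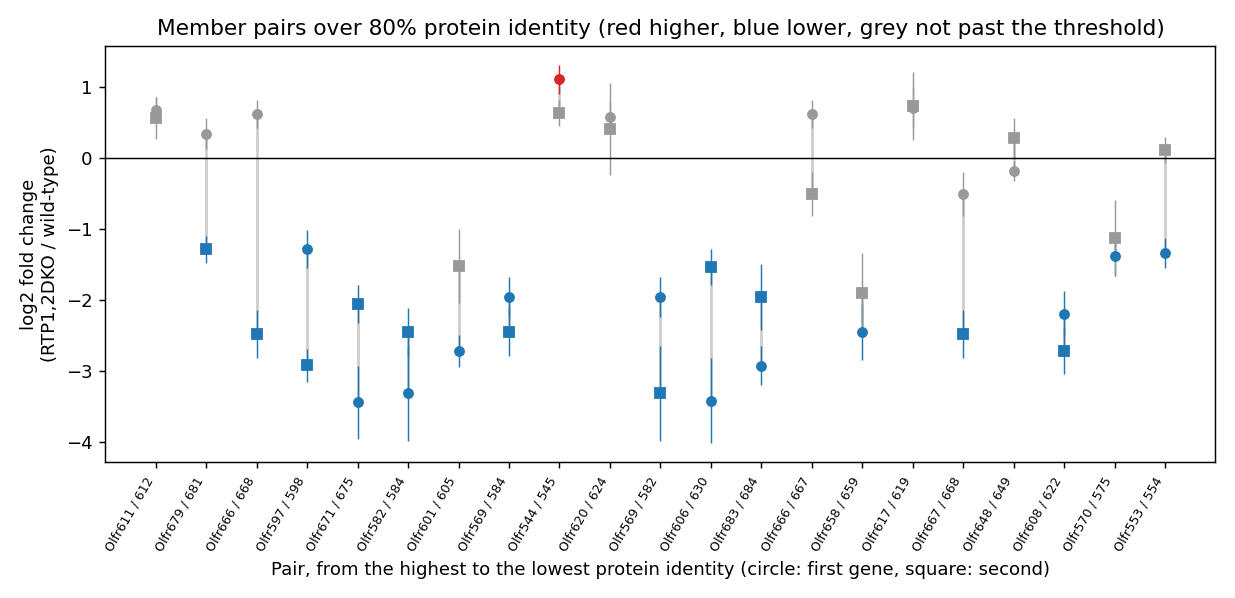
log2 fold changes of RTP1,2DKO over wild-type (vertical axis) for the 21 pairs of members over 80% protein identity with both means at least 10 normalized counts (horizontal axis). Circles and squares are the 2 genes, bars are standard errors (SE), and grey lines join a pair. In 5 pairs the genes lie on opposite sides of 0, among them Olfr666 and Olfr668, and no such pair has both genes past the threshold.

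Olfr666 and Olfr668, 97.5% identical in protein, differed most in log2 fold change among the close pairs. Olfr666 had 225, 253 and 172 normalized counts in the wild-type and 278.5, 351 and 370.0 in RTP1,2DKO, for a log2 fold change of 0.62 with an SE of 0.19 that did not pass the threshold (adjusted p = 0.134, edgeR). Olfr668 had 154, 167 and 97.1 normalized counts in the wild-type and 33.7, 24.5 and 17.1 in RTP1,2DKO, for a log2 fold change of -2.48 with an SE of 0.34 (adjusted p = 0.00102, edgeR). Thus Olfr666 was higher in every RTP1,2DKO mouse and Olfr668 lower. In the fit over intact ORs both passed, at 1.61 and -1.52 (adjusted p = 9.99e-08 and 0.000103, edgeR). The third gene of this group, Olfr667, had a log2 fold change of -0.51 (adjusted p = 0.619, edgeR). The coding sequences of Olfr666 and Olfr668, each of 954 bases, differ at 30 bases, and 15 of these fall in the stretch of 300 coding bases (157 to 456) shown here because it holds the most differences. Capitals mark the bases at which the pair differs, 5′ to 3′ on the minus strand of GRCm38, for Olfr666 at chr7:104893171-104893470 and for Olfr668 at chr7:104925307-104925606.
Olfr666: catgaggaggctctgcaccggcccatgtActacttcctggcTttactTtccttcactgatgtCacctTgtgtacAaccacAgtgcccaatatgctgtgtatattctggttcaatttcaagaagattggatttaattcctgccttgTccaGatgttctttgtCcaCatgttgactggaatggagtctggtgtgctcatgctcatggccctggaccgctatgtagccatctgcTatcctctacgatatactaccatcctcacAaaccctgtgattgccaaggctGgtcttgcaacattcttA
Olfr668: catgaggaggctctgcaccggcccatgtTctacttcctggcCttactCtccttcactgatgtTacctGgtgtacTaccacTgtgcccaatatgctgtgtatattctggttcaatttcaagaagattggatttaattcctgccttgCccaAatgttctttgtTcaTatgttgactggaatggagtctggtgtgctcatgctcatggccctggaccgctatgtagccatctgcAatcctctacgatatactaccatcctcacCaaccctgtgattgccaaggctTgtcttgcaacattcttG

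Olfr679 and Olfr681, 97.8% identical in protein, were chosen after their values were seen, as the most alike of the 5 pairs on opposite sides. Olfr679 had 167, 241 and 171 normalized counts in the wild-type and 287.0, 192 and 261 in RTP1,2DKO. Its groups overlapped (log2 fold change 0.35, adjusted p = 0.632, edgeR). Olfr681 fell from 486, 519.5 and 416 to 161, 176 and 244 normalized counts, by 1.29 on the log2 scale with an SE of 0.19 (adjusted p = 0.00152, edgeR). Their coding sequences of 945 bases differ at 14 bases, 10 of them in coding bases 568 to 867. The stretch is printed in the same way from the plus strand, for Olfr679 at chr7:105086285-105086584 and for Olfr681 at chr7:105122026-105122325.
Olfr679: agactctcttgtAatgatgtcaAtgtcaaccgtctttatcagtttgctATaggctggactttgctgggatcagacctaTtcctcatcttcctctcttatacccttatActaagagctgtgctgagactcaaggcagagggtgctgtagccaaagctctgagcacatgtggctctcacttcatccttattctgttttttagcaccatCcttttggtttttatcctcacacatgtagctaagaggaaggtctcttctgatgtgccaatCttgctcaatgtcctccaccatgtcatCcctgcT
Olfr681: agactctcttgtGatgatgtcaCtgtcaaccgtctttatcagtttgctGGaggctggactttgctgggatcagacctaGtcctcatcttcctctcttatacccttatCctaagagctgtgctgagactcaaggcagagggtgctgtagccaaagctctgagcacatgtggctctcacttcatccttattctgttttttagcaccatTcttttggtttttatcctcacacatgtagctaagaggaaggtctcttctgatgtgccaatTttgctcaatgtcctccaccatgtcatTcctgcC

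The share of 31-base words found in no other gene was 75.1% for Olfr666, 85.9% for Olfr668, 67.7% for Olfr679 and 65.2% for Olfr681, so that part of the reads of each could be counted on its relative. The other pairs over 80% identity with a difference over 2 held a rare gene. Olfr589 had at most 2.0 normalized counts in any mouse, while its relative Olfr594 fell by 2.13 on the log2 scale (adjusted p = 0.00263, edgeR). Olfr663 had 3.9 normalized counts in 1 wild-type mouse and 0.0 in all others, and its relative Olfr661 is described above. Among groups that moved together, Olfr569, Olfr582 and Olfr584 were all lower, as were both genes of 5 pairs, while Olfr544 and its relative Olfr545 had log2 fold changes of 1.11 and 0.64 (adjusted p = 0.0894 for Olfr545, edgeR).

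RefSeq start sites (GRCm38.p6) matched 100 of the 117 members. For 87 of 99 with a coding start the RefSeq start lay within 50 bases of the start codon, so that most of these windows describe the bases around the start codon. In windows from 250 bases before to 50 bases after the start, searched on both strands, TAATTA occurred in 15% of members, 19.2% of 822 other intact ORs and 5.31% of all 27025 genes. TAATGA occurred in 28.0%, 29.2% and 9.99%, and CCCNNGGG in 3.0%, 3.04% and 13.4%. The first 2 are letters that homeodomain factors such as Lhx2 bind, the last is read by Ebf factors, and both kinds of factor act in OR gene choice.

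As examples, the bases before a start site over 500 bases away from the start codon are shown for Olfr544, which rose, and for Olfr630, which fell by 1.54 on the log2 scale (adjusted p = 0.00308, edgeR) and was chosen after its values were seen, because its window holds a motif. Capitals mark TAATGA, here read on the opposite strand as TCATTA. The windows lie on the minus strand at chr7:102488314-102488557 and chr7:103757351-103757600 and are written 5′ to 3′. That of Olfr630 holds TAATGA at 2 places, and that of Olfr544 holds none of the 3 motifs. Among other members with such a window, Olfr558, which rose, and Olfr566, which was not called, hold none either. The window of the rare Olfr631 holds TAATGA and CCCNNGGG. A link between motifs and the direction of change was not tested.
Olfr544: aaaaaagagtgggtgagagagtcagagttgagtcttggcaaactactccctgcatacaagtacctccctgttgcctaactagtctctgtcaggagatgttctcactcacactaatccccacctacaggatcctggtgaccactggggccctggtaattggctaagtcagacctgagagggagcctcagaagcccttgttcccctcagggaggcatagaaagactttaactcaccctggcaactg
Olfr630: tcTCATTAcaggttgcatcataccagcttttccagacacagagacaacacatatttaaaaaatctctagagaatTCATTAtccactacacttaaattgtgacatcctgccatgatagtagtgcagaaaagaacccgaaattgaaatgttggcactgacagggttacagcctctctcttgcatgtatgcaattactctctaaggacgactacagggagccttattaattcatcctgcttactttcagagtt

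Markers of mature OSNs fell together with the lower members. Of 10 such genes, 9 were lower, from Slc17a6, a glutamate transporter, at -0.75 to Stoml3, a stomatin-like protein of cilia, at -2.0 on the log2 scale, and Omp, the olfactory marker protein, fell from 64807 ± 4152 to 34635 ± 6247 normalized counts (SD, n = 3). The summed counts of the list were 166433 to 190952 in the wild-type and 84869 to 91431 in RTP1,2DKO. Of 18 genes of odor transduction and OR transport, which share 8 genes with the former list and hold Rtp1 and Rtp2 themselves, 13 were lower and 0 higher. Among them Adcy3, the adenylyl cyclase of the cilia, fell by 1.41 and Ric8b, an exchange factor for the olfactory G protein, by 0.92 on the log2 scale. Of 6 markers of immature OSNs, Gap43 and Gng8 were higher by 0.58 and 0.91 (adjusted p = 0.0418 and 0.0104, edgeR), and 4 were higher with the replicate number as a block. The list summed to 26902 to 32939 normalized counts in the wild-type and 37462 to 39943 in RTP1,2DKO. How far this change in neurons takes part in the changes of the members was not tested.

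None of 17 genes of OR gene choice, such as Lhx2, Ldb1 and Ebf1, passed the threshold in edgeR or in DESeq2, although 3 of them had an unadjusted p under 0.05, with log2 fold changes from -0.34 to 0.40. Of the dorsal markers, Nqo1 was lower by -0.66 (adjusted p = 0.00365, edgeR), and Acsm4 had -0.16 (adjusted p = 0.78, edgeR). The ventral markers Ncam2 and Nrp2 had -0.16 and 0.01, and neither passed. Of 4 erythroid genes 1 was higher, Hbb-bt, by 0.88 (adjusted p = 0.0485, edgeR), a call that was lost with the replicate number as a block. All 4 had an unadjusted p under 0.05 and log2 fold changes from 0.71 to 0.88, and DESeq2 called 2 of them higher. The list summed to 56751 to 92332 normalized counts in the wild-type and 90382 to 165573 in RTP1,2DKO. The globin genes Hbb-bt and Hbb-bs lie within the span of the Class I cluster, and Hba-a1 lies on another chromosome. Hbb-bs and Hba-a1 each had a log2 fold change of 0.76 with overlapping groups (adjusted p = 0.0844 and 0.186, edgeR). Whether the place of these genes plays a part was not tested. None of the 4 sustentacular, 3 horizontal basal, 3 macrophage and 2 Bowman gland markers passed the threshold in edgeR or in DESeq2, and 0 of them had an unadjusted p under 0.05. The part of blood in the changes of the members was not tested.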

How the data were processed

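RNA-seq of olfactory mucosa from 3 wild-type and 3 RTP1,2DKO mice was used, grouped by the labelled genotype. Per the methods, the authors assigned reads with kallisto (version not given in the sources used here) to mouse transcripts from the UCSC browser in which the OR models had been replaced by extended ones, and the submitters' processing notes name the build mm10. For each transcript the deposited files hold a length, an estimated count and a TPM value. Whether strand was used in counting is not given in the sources used here.

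The estimated counts of all transcripts of a gene were added up and rounded to whole numbers, and deposited TPM values were summed in the same way. Genes with at least 1 rounded count in some mouse were tested by the quasi-likelihood test of edgeR 4.0.16 (R 4.3.3) with median-of-ratios size factors (0.907 to 1.15), over all 22152 genes or over the 1089 intact ORs (names of Olfr and a number, size factors 0.709 to 1.68), with Benjamini-Hochberg adjustment and a threshold of 0.05. Normalized counts are counts divided by size factors. Standard errors (SE) were worked back from the edgeR test, as the size of the fitted log2 coefficient over the square root of its F statistic. P-values measure the spread between 3 mice per group. Alternatives were TMM factors, a filter on low counts, DESeq2 1.42.0, scaling to the OR total, a replicate block and leaving out each mouse. Deviations from the group means correlated weakly between mice with the same number (0.139, 0.179 and 0.103 over 18133 genes). Between mice with different numbers the correlations ran from -0.219 to 0.0934, so these values alone do not establish pairs. Littermates were used per the methods, and the numbers were taken to pair the mice in the replicate block only. The main fits used genotype alone. In simulated counts, 200 genes were changed. The all-gene edgeR fit recovered 77.5% of them with the spread set by the trend over genes. With the spread of each gene it recovered 79%. False calls made up 5.49% and 18.1% of its calls in that order, and 11.6% and 18.5% in DESeq2. Of halved and doubled genes, the edgeR fit recovered 58% and 66%, then 64% and 68%. The OR fit recovered 85% and 82%, with 6.08% and 3.53% false calls.

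Positions and proteins came from GENCODE M21 (GRCm38). Proteins were aligned globally (BLOSUM62, gap opening 11, extension 1) with Biopython 1.88. Members named are those that rose, the 10 largest falls, the 6 highest by wild-type TPM, those with a known ligand or place outside the nose, those tested in cells in the study, the ends of the range, the 3 most divergent close pairs and the 2 with the largest spread. The members and the 12 gene lists were chosen with earlier results of these data known, and 1 of the lists is not reported here.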

Additional observations from a re-analysis of the deposited data

How the results depend on the processing

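In the all-gene fit, 40 members were lower and 6 higher. These counts were 44 and 9 with DESeq2, 40 and 6 with TMM factors, 40 and 5 with a filter on low counts and 41 and 7 with the replicate number as a block. Without 1 mouse they ranged from 37 to 39 and from 3 to 6, and the median log2 fold change from -0.82 to -0.547. Over intact ORs, scaling to the OR total gave 46 lower and 25 higher members and a median of -0.414 in place of 0.364, while TMM factors, the filter, DESeq2 and the block (30 and 44) kept the sign, and the median without 1 mouse ranged from 0.165 (without RTP1,2DKO mouse 2) to 0.49, with 0.181 without wild-type mouse 2. Markers of immature neurons past the threshold numbered 4 with DESeq2, 1 with the filter, 4 with the block and 1 to 3 without 1 mouse (1 without each RTP1,2DKO mouse in turn and without wild-type mice 2 and 3). The difference in the members' share of OR counts was -0.583 percentage points, -0.088 without the most abundant OR and -0.857 to -0.439 without 1 mouse. The number of members detected per mouse differed by -6.33 at 10 counts and by -1 at 1 count. The signs of some named genes turned. In the all-gene fit Olfr638 took 0.079 with the block, and without 1 mouse Olfr638 ranged from -0.998 to 1.247, Olfr643 from -0.828 to 0.085 and Olfr615 from -0.201 to 0.236. Over intact ORs Olfr638, Olfr656 and Olfr661 took -0.222, -0.299 and -0.305 when scaled to the OR total, and without 1 mouse Olfr566 ranged from -0.513 to 0.165, Olfr638 from -0.027 to 2.205 and Olfr631 from -2.527 to 0.458. The block changed the call of no other named member than Olfr656, Olfr661 and Olfr692 over intact ORs. The causes were not tested. The 20 members under a mean of 10 counts are limited by depth.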

Other observations

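Counts and TPM parted for Olfr615, which was chosen after its values were seen. Its normalized counts were level (log2 fold change 0.01), whereas its deposited TPM was 14.6, 19.4 and 9.59 across wild-type mice 1 to 3, but 5.44, 5.70 and 3.33 in the RTP1,2DKO mice. The log2 ratio of mean TPM differed from that of mean normalized counts by -1.60, against a median gap of -0.25 over 78 members averaging 50 or more counts, and no other of these members lay more than 1 from the median. Among its transcripts, the one of 941 bases had 119.9, 145.6 and 105.5 estimated counts in the wild-type and 0.0 in each RTP1,2DKO mouse, and the one of 3400 bases had 8.1, 155.2 and 0.0 in the wild-type and 381.0, 581.6 and 393.3 in RTP1,2DKO. The cause was not tested.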
